A study of Homo sapiens with 10 samples.

Results

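The 5 venetoclax-insensitive lines of this series, called VENins 1 to 5, were compared with each other, gene by gene, by RNA sequencing. They were chosen by their sample labels and make up 5 of the 10 libraries. The series starts from RS4;11, an established B-cell precursor acute lymphoblastic leukemia cell line that is sensitive to venetoclax (VEN) and carries a KMT2A rearrangement. The 5 VENins lines were grown side by side from it under VEN that was raised in steps, and the 5 control lines, VENsens 1 to 5, were kept with the solvent DMSO over the same period. All 10 lines descend from 1 parental line, and each line gave 1 library. A difference between lines therefore cannot be told apart from a difference between harvests or library preparations. The VENsens lines serve here only as a yardstick of how far untreated sister cultures drift, and the means of the conditions were not tested. The question is how alike the separately grown insensitive lines became.

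Venetoclax occupies the BH3-binding groove of BCL2, an anti-apoptotic protein that many lymphoid leukemias depend on, and frees pro-apoptotic BH3-only proteins to activate BAX and BAK1 at the mitochondrion. Lines grown apart under the same drug can come to differ because each is founded by its own surviving cells, and also because any cultures drift. B-cell precursor leukemias carry a transcription programme of early B-cell development, in which DNTT adds nucleotides to rearranging immunoglobulin genes and BLNK passes on the signal of the precursor B-cell receptor.

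The VENins libraries held 21145316 to 25394653 counts on genes, and the VENsens libraries 20631907 to 28323643. The label of a B-cell precursor leukemia was checked against marker genes. All 10 B-lineage markers checked had a mean of at least 1 CPM, where CPM is a count scaled to library size, and PAX5, which fixes B-cell identity, was the most abundant by its mean over the 5 lines, at 585 to 679 CPM. Their sums in VENins 1 to 5 were 2845, 2911, 2894, 2875 and 3098 CPM. All 6 genes of the KMT2A-rearranged programme checked were present too. Of 6 erythroid and platelet markers 0 reached 1 CPM and 5 had no count in any VENins line, and 0 of 4 epithelial markers reached 1 CPM. Of 9 myeloid markers 3 reached 1 CPM, led by CSF1R at 9.21 to 11.4 CPM, and of 7 T and NK cell markers 1 did, NKG7 at 48.1 to 63.8 CPM. Of 5 stromal markers 2 did, led by PDGFRB at 11.3 to 16.1 CPM. In bulk RNA, fewer cells expressing a gene and less RNA per cell cannot be told apart.

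The 5 VENins lines differed from each other in most of the genes measured, mostly by small amounts. Of 14595 genes with a mean of at least 1 CPM, 8903 (61%) varied among the VENins lines beyond counting error at an adjusted p under 0.05. Among the VENsens lines 6792 of 14642 genes (46.4%) did. The spread of a gene is given below as its coefficient of variation (CV) among 5 lines with the counting part taken out. Its median over the 14468 genes measured in both conditions was 6.67% in VENins and 4.96% in VENsens lines. The CV was larger in VENins lines for 8819 of these genes (61.0%). The difference was clearest at the far end, where 60 genes had a CV of at least 50% among VENins lines and 7 among VENsens lines.

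The median CV and the share of genes beyond counting error lean on 1 library in each condition. Without VENins 5 the median CV was 4.60%, and 41.4% of genes varied beyond counting error. Without VENsens 2 the median CV of the controls was 3.36%, and 27.9% of genes varied. The far end leaned on another line: of all 14595 genes, 64 had a CV of at least 50% among VENins lines, and 45 of them were highest in VENins 4. Gene by gene, limma on the absolute deviations from the condition mean called 0 of 14614 genes (0%) as more spread in VENins lines and 0 (0%) as less spread. At an unadjusted p under 0.05 there were 1099 more spread and 310 less spread, and an F test of the ratio of variances, chosen after seeing the data, gave 0 adjusted calls with 828 and 244 unadjusted. Without line 5 of both conditions the limma unadjusted counts were 829 and 903, and without line 2 of both they were 2047 and 300. Without line 1, 3 or 4 of both, 1030 to 1551 genes were more spread and 370 to 455 less spread. On simulated data with equal spread the limma test passed more genes at that unadjusted threshold than it should, and it called none of the genes when few were given a much larger spread. Its 0 therefore says nothing on whether single genes differ in spread.

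**Figure D1:**
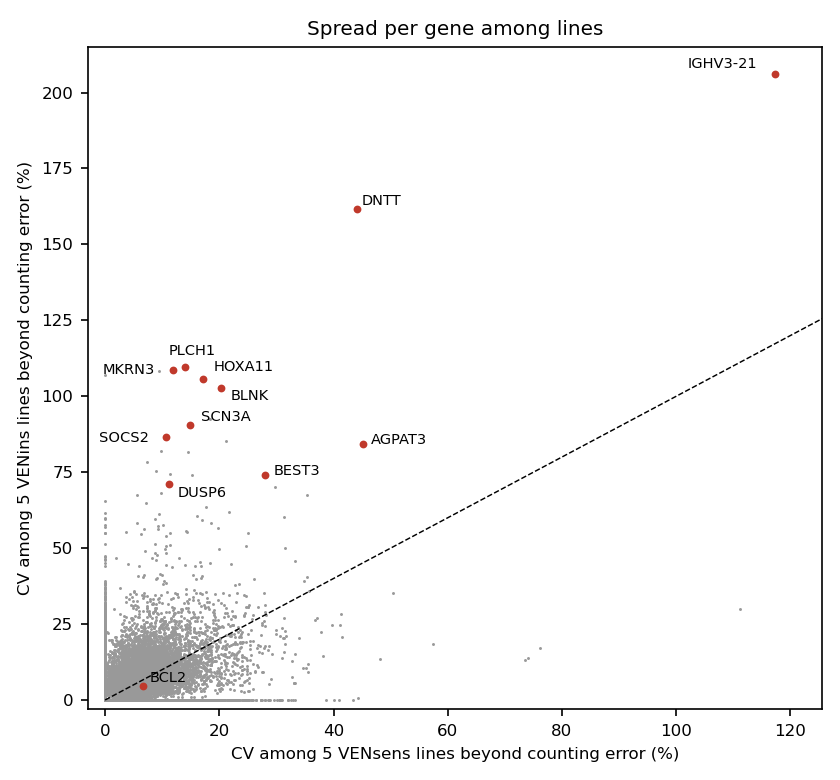
Coefficient of variation of each gene among the 5 VENins lines (vertical axis, %) against that among the 5 VENsens lines (horizontal axis, %), counting part taken out, with named genes in red and equal spread as the dashed line. IGHV3-21 lies farthest up at 206%, DNTT follows at 162%, and BCL2 sits near the origin at 4.68%.

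VENins 4 had the most genes at least 2-fold apart from all other VENins lines. A gene was taken as set apart in a line when that line differed from the other 4 at an adjusted p under 0.05 (edgeR, adjusted over all genes and lines) and lay beyond each of them by at least 2-fold. This held for 15 genes in VENins 4 (0.103% of those tested), 4 in VENins 5 (0.0274%), 1 in VENins 3 (0.00685%), 1 in VENins 1 (0.00685%) and 0 in VENins 2 (0%). For VENins 2, 304 genes had an unadjusted p under 0.05, and DESeq2 also gave 0. Over the 5 VENsens lines the same rule called 7 times (0.00956% of gene and line pairs), 6 of them in VENsens 4, which is more than in VENins 5. By adjusted p alone the counts in VENins 1 to 5 were 1 (0.00685%), 0 (0%), 1 (0.00685%), 22 (0.151%) and 21 (0.144%), beside 53 calls (0.0724%) over the VENsens lines, of which VENsens 2 alone had 20 upward and 18 downward. Without a gap the order of VENins 4 and 5 depended on the method: DESeq2 called 66 and 309 genes, edgeR at an unadjusted p under 0.05 gave 770 and 3216, and edgeR with the length and GC trend as an offset called 45 and 6. The counts of 15 and 4 fell to 7 with RLE size factors for VENins 4 and to 2 with the length and GC trend as an offset for VENins 5. Without VENins 3 the count of VENins 4 was 44, and without VENins 5 it was 24.

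All 15 genes of VENins 4 were set apart upward. The most distant was DNTT, terminal deoxynucleotidyl transferase, at 1.08, 1.43, 3.38, 27.4 and 1.95 CPM in VENins 1 to 5, a gap of 2.99 in log2 to the next line (adjusted p = 0.00037). Its VENsens lines ran from 3.03 to 8.31 CPM, so VENins 4 lay above the control range and VENins 1, 2 and 5 below it. BLNK, the B-cell linker, stood at 1.26, 1.96, 3.10, 9.59 and 1.17 CPM, against 2.12 to 3.94 CPM in VENsens lines. VENins 4 was again above the control range and VENins 1, 2 and 5 below it. B3GALNT1, a glycosyltransferase that builds globoside, stood at 1.12, 1.02, 2.04, 7.22 and 1.04 CPM (gap 1.78). MKRN3, an imprinted gene on chromosome 15 that restrains the onset of puberty, stood at 1.40, 0.573, 0.938, 4.85 and 0.519 CPM (gap 1.73). Both had VENins 4 above the VENsens range and the other 4 VENins lines below it.

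The same picture ran through the rest of the 15. PLCH1, a phospholipase C, stood at 0.889, 1.43, 3.26, 9.71 and 1.39 CPM, and CDH11, a cadherin, at 1.22, 1.02, 3.10, 9.08 and 1.30 CPM. CPT1A, which lets long-chain fatty acids into mitochondria for oxidation, stood at 3.42, 3.72, 7.34, 17.2 and 4.80 CPM. NRIP1, a nuclear receptor corepressor and the most abundant of them, stood at 25.3, 23.4, 54.2, 119 and 26.9 CPM. In these 4 genes VENins 3 was the second line. The remaining 6 protein-coding genes were GRASP, SMAGP, FSCN1, SCARF1, DDN and FRMPD1, with the antisense gene SOCS2-AS1 beside them. Over the 15 genes VENins 4 was above the VENsens range in 14, whereas VENins 1, 2 and 5 were each below it in all 15 and VENins 3 in 12. VENins 4 was at least 2-fold above the highest VENsens line in 2 of the 15. With RLE size factors PLCH1, CDH11, CPT1A, NRIP1, SMAGP, FSCN1, FRMPD1 and SOCS2-AS1 lost their call. The counts lack strand, so reads of SOCS2-AS1 and of SOCS2 where they overlap cannot be told apart.

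**Figure D2:**
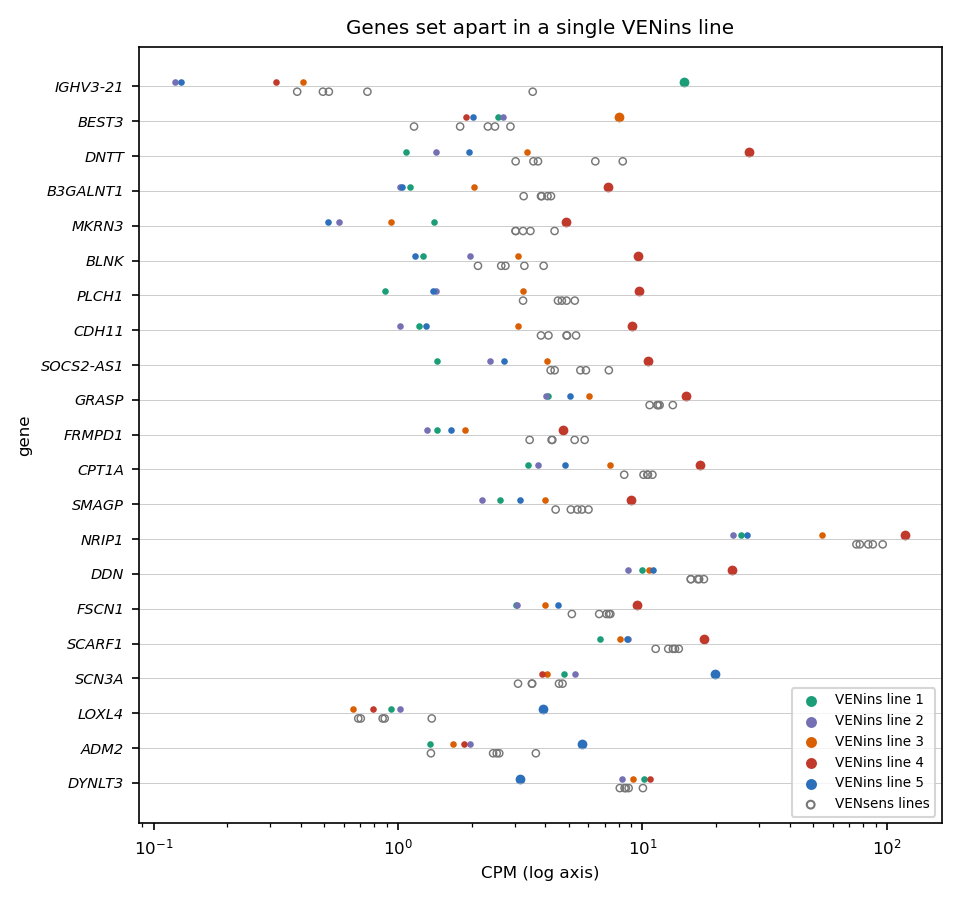
CPM on a log axis of the 21 genes set apart in a single VENins line, with VENins lines as filled and VENsens lines as open points; the larger filled point is the line set apart. In the 15 genes of VENins 4 the points of VENins 1, 2 and 5 lie to the left of all open points.

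Few genes set the other lines apart. In VENins 5 SCN3A, a neuronal sodium channel, stood at 4.77, 5.28, 4.08, 3.87 and 19.8 CPM in VENins 1 to 5 (gap 1.89, adjusted p = 0.0032), against 3.10 to 4.71 CPM in VENsens lines. LOXL4, a lysyl oxidase, stood at 0.936, 1.02, 0.652, 0.789 and 3.94 CPM, and ADM2, a peptide hormone gene, at 1.36, 1.96, 1.67, 1.85 and 5.67 CPM. VENins 5 was above all control lines in these 3 genes. DYNLT3, a dynein light chain, was the only gene set apart downward in any VENins line, at 10.1, 8.26, 9.18, 10.8 and 3.16 CPM. Of these 4 genes, ADM2 lost its call without VENins 1, 2 or 3, LOXL4 without VENins 1 and DYNLT3 without VENins 1 or 3. With the line number as a block over all 10 lines, 1 of the 4 kept its call. In VENins 3 BEST3, a chloride channel of the bestrophin family, stood at 2.57, 2.70, 8.03, 1.89 and 2.03 CPM. BEST3 lost its call at a mean of at least 5 CPM, with p adjusted within the line and with the same block. In VENins 1 the immunoglobulin segment IGHV3-21 stood at 14.7, 0.123, 0.408, 0.316 and 0.130 CPM, against 0.387 to 3.56 CPM in VENsens lines. That segment belongs to a family of similar genes, between which reads can be misplaced. IGHV3-21, MKRN3 and LOXL4, 3 of the 21 genes set apart, reached a mean of 1 CPM only through the line in which they are called, with means of 0.244, 0.858 and 0.850 CPM in the other 4 lines, so for them the filter and the call rest on the same value.

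The low level in VENins 1, 2 and 5 was shared by many genes. A gene was counted as low in a line when it lay at least 2-fold below the lowest VENsens line, a count added after the values were seen. This held for 46 genes in VENins 1, 43 in VENins 2, 2 in VENins 3, 3 in VENins 4 and 30 in VENins 5. Of the 72 genes low in any line, 67 were low only among VENins 1, 2 and 5, and 16 were low in exactly these 3, with MKRN3 low in VENins 1, 2, 3 and 5. No gene was at least 2-fold beyond the control range, in the same direction, in all 5 VENins lines. Genes at least 2-fold above the highest VENsens line numbered 5, 2, 8, 5 and 6 in VENins 1 to 5, fewer than the low genes in VENins 1, 2 and 5 and more in VENins 3 and 4. Each VENsens line held against the other 4 had at most 2 genes low and 5 high by the same measure, the 5 being in VENsens 4, as many as in VENins 1 and 4. With a minimum mean of 5 CPM the low counts were 23, 22, 0, 1 and 15.

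Genes that vary widely among VENins lines followed 1 order, with VENins 4 highest, VENins 3 second and VENins 1, 2 and 5 low. Among 54 protein-coding genes with a CV of at least 50%, 43 were highest in VENins 4, and 36 (66.7%) were highest in VENins 4 and second in VENins 3. Over all 11127 protein-coding genes this order held for 7.95%. The median of these 36 genes, relative to the mean of the VENsens lines, was 0.364, 0.357, 0.749, 1.48 and 0.421 in VENins 1 to 5. Their median CV was 62.4% among VENins lines and 9.90% among VENsens lines. The 36 genes lie on 20 chromosomes. They were picked by their spread, so the size of the spread is a description. The order itself was chosen after the values were seen, so its share of 66.7% is a description too. The genes named in the next paragraph were also chosen after their values were seen. Of the 36 genes, 10 are among the genes set apart in VENins 4, and the median step from VENins 3 to VENins 4 was 1.92-fold.

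**Figure D3:**
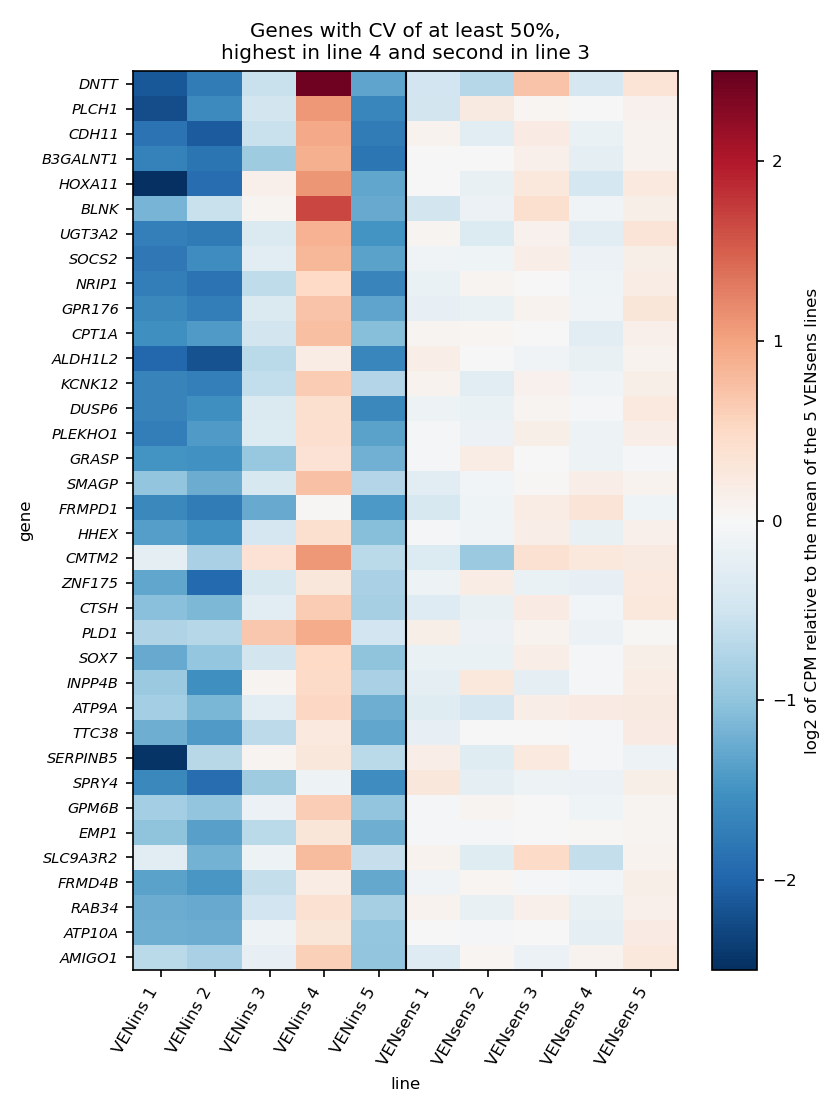
Log2 of CPM relative to the mean of the 5 VENsens lines for the 36 protein-coding genes with a CV of at least 50% that are highest in VENins 4 and second in VENins 3. VENins 1, 2 and 5 are low in most genes, VENins 3 lies nearer the controls and VENins 4 lies above them in most genes.

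SOCS2, a feedback inhibitor of cytokine receptor signalling, stood at 32.1, 37.6, 92.2, 198 and 43.8 CPM in VENins 1 to 5, against 100 to 125 CPM in VENsens lines. VENins 4 lay above all control lines and the other 4 below them. DUSP6, a phosphatase that acts on ERK and is itself induced by it, stood at 11.1, 12.2, 27.4, 46.5 and 11.5 CPM, against 31.4 to 41.7 CPM. HOXA11, a homeobox gene, stood at 0.421, 0.9, 4.00, 7.97 and 1.43 CPM, against 2.67 to 4.40 CPM. HHEX, a homeobox gene of blood progenitors, stood at 8.28, 7.57, 16.2, 28.7 and 10.4 CPM, against 19.1 to 24.3 CPM. In all 4 genes VENins 4 was above and VENins 1, 2 and 5 were below the control range. ALDH1L2, a mitochondrial enzyme of folate metabolism, stood at 9.36, 8.06, 22.9, 41.9 and 11.7 CPM. HOXA9, a lead gene of KMT2A-rearranged leukemia, did not share the order, at 144, 155, 149, 148 and 163 CPM.

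Other genes of MAPK feedback were looked at after DUSP6 was seen. SPRY4, itself among the 36 genes picked by their spread and order, stood at 2.39, 1.92, 4.00, 6.83 and 2.51 CPM, SPRED1 at 22.7, 19.8, 26.9, 35.5 and 18.7 CPM and SPRED2 at 25.5, 28.4, 37.7, 45.5 and 27.4 CPM. ETV5, a transcription factor induced by ERK, stood at 51.2, 47.0, 68.8, 72.7 and 40.2 CPM. All 4 were highest in VENins 4 and second in VENins 3, but VENins 4 lay within the VENsens range in each of them and the other 4 VENins lines below it. Over the 5 measured genes of a MAPK activity list of 10, chosen after the values were seen, the mean log2 deviation from the 5-line mean was −0.30, −0.43, 0.33, 0.68 and −0.29 in VENins 1 to 5, and the median over these genes in VENins 4 was 0.41. DUSP6 and SPRY4 belong to these 5 genes and to the 36 picked by their spread and order, so the mean partly restates that choice. The receptor FLT3 did not share the order, at 300, 311, 310, 294 and 282 CPM. SOCS1 and CISH, feedback genes of the JAK-STAT pathway, did not share it either, with SOCS1 at 9.36, 9.37, 7.58, 5.68 and 14.7 CPM.

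DNTT and BLNK are neighbours on chromosome 10 that are read in opposite directions from starts 32.8 kb apart. ZNF518A beside BLNK had the same order of lines over a narrow range, at 104, 109, 111, 119 and 93.5 CPM, and so did the pseudogene NPM1P25 at a low level, 0.281, 0.450, 0.734, 1.42 and 0.216 CPM. ZNF518A overlaps both BLNK and NPM1P25 on the opposite strand, and without strand the reads of the overlap cannot be told apart. TM9SF3 beside DNTT did not, at 230, 222, 219, 227 and 189 CPM. The promoters of the pair are shown because these neighbours moved together. Each window covers 300 bases around the start of the gene (RefSeq, GRCh38.p14), and capitals mark CACCTG, the E-box CAGGTG read on the opposite strand. The DNTT window is chr10:96304184-96304483 on the plus strand and the BLNK window chr10:96271520-96271819 on the minus strand.
DNTT: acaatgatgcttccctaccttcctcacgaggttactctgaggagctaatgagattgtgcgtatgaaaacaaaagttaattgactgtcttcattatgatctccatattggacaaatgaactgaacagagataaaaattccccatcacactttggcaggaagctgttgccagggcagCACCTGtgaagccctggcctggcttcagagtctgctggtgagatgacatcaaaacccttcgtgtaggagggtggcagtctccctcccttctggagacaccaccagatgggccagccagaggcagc
BLNK: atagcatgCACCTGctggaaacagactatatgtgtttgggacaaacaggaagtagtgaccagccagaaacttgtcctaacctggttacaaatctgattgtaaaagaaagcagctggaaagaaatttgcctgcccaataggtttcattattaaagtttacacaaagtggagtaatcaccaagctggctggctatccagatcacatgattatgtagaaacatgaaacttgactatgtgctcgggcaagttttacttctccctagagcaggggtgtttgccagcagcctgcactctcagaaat
On both strands CAGGTG occurred once in each window, and 20.6% of 35116 promoters hold it. The palindromic E-box CAGCTG, held by 17.9% of promoters, occurred once in the BLNK window only. The STAT element TTCNNNGAA (7.66% of promoters), the longer ETS form CCGGAA (17.2%) and the AP-1 element TGACTCA (4.95%) occurred in neither window. The shorter ETS core GGAA was not counted over promoters, and both windows hold it. A match describes the letters of the window and shows no binding.

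Genes of chromosomes 15 and 20 differed among the VENins lines as groups, by small amounts. In VENins 4 the 469 genes of chromosome 15 had a median of 0.14 in log2 above the mean of the 5 VENins lines, and 59.5% of them were highest in VENins 4, against 18.3% of genes elsewhere. The shift ran along the whole chromosome, with medians of 0.12 to 0.18 in each of 9 runs of about 50 neighbouring genes. None of 276 runs on other chromosomes reached the lowest of these in VENins 4. Relative to the mean of the VENsens lines, the chromosome 15 medians of VENins 1 to 5 were −0.12, −0.13, −0.02, 0.07 and −0.11. VENins 4 was thus above and VENins 1, 2 and 5 further below the controls, in the order of the graded genes. Of the 36 graded genes 3 lie on chromosome 15, among them GPR176, an orphan receptor, at 11.0, 10.2, 26.4, 55.2 and 13.5 CPM, and CTSH, a lysosomal protease, at 14.2, 13.4, 24.2, 45.8 and 16.4 CPM.

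In VENins 3 the 364 genes of chromosome 20 had a median of 0.12 above the 5-line mean, and 54.1% of them were highest in VENins 3, against 14.4% elsewhere. The medians of its 7 runs lay between 0.10 and 0.13, and VENins 3 was highest in 6 of these runs. Relative to the mean of the VENsens lines, the chromosome 20 medians of VENins 1 to 5 were 0.002, 0.02, 0.15, −0.001 and 0.09. BCL2L1, which encodes the anti-apoptotic BCL-XL and lies on chromosome 20, stood at 67.6, 67.9, 73.4, 64.2 and 71.5 CPM and was highest in VENins 3, within the VENsens range of 65.4 to 74.6 CPM. Copy number was not measured, and its part in either shift was not tested.

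**Figure D4:**
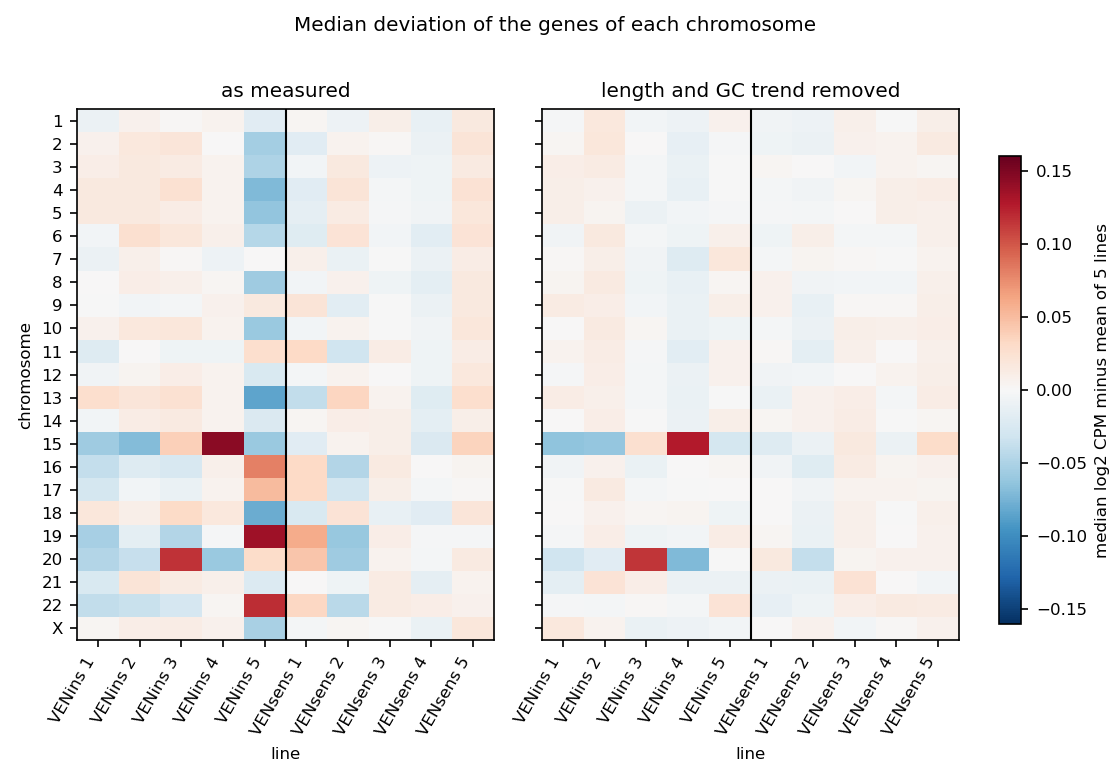
Median over the genes of each chromosome of log2 CPM minus the mean of the 5 lines of the same condition, as measured and with the trend on length and GC content removed. Chromosome 15 in VENins 4 and chromosome 20 in VENins 3 stand out in both panels, whereas the pattern of VENins 5 is seen as measured only.

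VENins 5 differed from the other lines in many genes. Its 4 pairings with the other VENins lines had the most genes called beyond counting error, 5692 to 5974 in each pair, against 2074 to 4257 in the 6 pairs without it. Genes over 2-fold apart numbered 163, 138, 67 and 154 in the pairs of VENins 4 with VENins 1, 2, 3 and 5, and 93, 70 and 88 in those of VENins 5 with VENins 1, 2 and 3. The difference followed base composition. In VENins 5 the quintile of genes lowest in GC content had a median of −0.13 in log2 and the highest quintile 0.21, and in the other 4 VENins lines these medians stayed between −0.08 and 0.05. VENsens 1 had a weaker trend of the same sign, from −0.06 to 0.08, and VENsens 2 one of the opposite sign, from 0.08 to −0.09. With each library's trend on length and GC content as an offset, chosen after seeing the data, 46.8% of genes varied beyond counting error in VENins and 36.0% in VENsens lines. Chromosomes 19 and 22, which are rich in GC, had medians of 0.14 and 0.12 in VENins 5 as measured, and 0.01 and 0.02 with the trend removed. On chromosome 15 in VENins 4 and chromosome 20 in VENins 3 the values with the trend removed were 0.13 and 0.11.

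The genes of this paragraph were chosen after their values were seen, and FTH1 is the only one of them for which VENins 5 passed the test against the other 4 lines. FTH1, the heavy chain of the iron store ferritin, stood at 72.0, 73.8, 73.0, 79.2 and 138 CPM (adjusted p = 0.0044), against 76.0 to 86.3 CPM in VENsens lines. NDUFA4L2, a hypoxia-induced mitochondrial gene, stood at 29.6, 45.5, 40.4, 20.8 and 74.4 CPM (adjusted p = 0.26 for VENins 5). HMGCS1, an enzyme of cholesterol synthesis, was lowest there, at 448, 417, 374, 379 and 277 CPM (adjusted p = 0.11). RAG1, which cuts immunoglobulin genes for their rearrangement, stood at 224, 155, 217, 218 and 129 CPM (adjusted p = 0.28). It was low in VENins 2 and 5, both below the VENsens range of 201 to 261 CPM. PTPN14, a phosphatase, had VENins 3 highest and VENins 5 lowest, at 46.6, 55.8, 99.7, 48.9 and 22.9 CPM, and the gap of VENins 5 of −1.02 in log2 had an adjusted p of 0.30.

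Groups of genes moved little as groups. For each of 40 lists the mean log2 deviation of its members from the 5-line mean was taken in every line. Among the 29 lists with at least 10 measured genes, the SD of the 5 values was larger in VENins lines for 11 and in VENsens lines for 18, with medians of 0.05 and 0.06. Without VENsens 2 this turned to 19 lists larger in VENins and 10 in VENsens lines. Genes set apart occurred in 2 of the 40 lists, DNTT and BLNK in the B-lineage list and CPT1A among fatty acid oxidation genes. These are 3 of 776 list genes measured (0.387%), against 21 of all 14595 genes (0.144%).

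The immediate early genes, the rapid response to growth factor signals, had the largest SD among VENins lines of the 29 lists with at least 10 measured genes. Their 22 measured members had means of −0.09, −0.15, 0.04, 0.23 and −0.03 in VENins 1 to 5, an SD of 0.15 against 0.04 in VENsens lines. Without VENins 4 the SD among VENins lines was 0.08, below the 0.13 of the ATF4 and integrated stress response list. The first place therefore rested on that line. VENins 4 was highest in 12 of the 22, against 19.6% of all genes, and lowest in 5. Its deviation was upward in 14 of the 22. Of the 22 genes 15 (68.2%) varied beyond counting error, against 61.0% of all genes. The 26 measured genes of ATF4 and the integrated stress response, which cells switch on when amino acids run short, had means of −0.14, −0.12, 0.03, 0.08 and 0.14. VENins 1 and 2 were low and VENins 5 was high, where 16 of the 26 were highest, against 28.3% of all genes. Of these genes CHAC1, which degrades glutathione, stood at 21.1, 23.5, 25.4, 31.9 and 35.1 CPM, and PHGDH, the first enzyme of serine synthesis, at 295, 306, 338, 346 and 409 CPM. SESN2, a stress-induced brake on mTORC1, stood at 73.4, 77.1, 81.9, 88.6 and 106 CPM. All 3, chosen after their values were seen, were lowest in VENins 1 and highest in VENins 5, and no line was set apart in any of them. Of the 26 list members 13 were lowest in VENins 1. With the length and GC trend removed, the list mean in VENins 5 was 0.10.

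Cholesterol synthesis, with 22 measured genes, had means of 0.08, 0.08, −0.05, −0.02 and −0.09, with VENins 1 and 2 above the other lines. The ER chaperones, 17 genes, had 0.08, 0.06, −0.10, −0.05 and 0.02. The SD of both was close to that among VENsens lines, at 0.08 against 0.08 and 0.08 against 0.06. Without VENsens 1 the VENsens SD was 0.02 and 0.03, so the closeness rested on 1 control library. The B-lineage list, with 22 measured genes, had a mean of 0.14 in VENins 4, and without DNTT and BLNK it was −0.10, so these members alone set its sign. VPREB3, a part of the precursor receptor, was lowest in VENins 4, at 274, 255, 230, 164 and 315 CPM. MHC class II genes, 8 measured, had their highest mean in VENins 4, 0.17, and their regulator CIITA stood at 52.6, 45.5, 59.4, 71.7 and 55.4 CPM, below the VENsens range of 76.3 to 88.5 CPM in all 5 lines.

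Some groups had a larger SD among VENsens lines, and 1 library carried much of the SD in VENsens lines or in both conditions. The 62 respiratory chain genes had means of −0.03, 0.07, −0.02, −0.01 and −0.01 in VENins 1 to 5, an SD of 0.04 against 0.08 in VENsens lines. These are nuclear genes, since the 37 genes of the mitochondrial chromosome had no count in any library. The 32 mitotic genes had an SD of 0.07 against 0.13, and the 70 measured mitochondrial ribosome genes 0.04 against 0.08. VENsens 1 was low for mitotic genes, at −0.22, and without it the VENsens SD was 0.04. VENsens 2 was low for the respiratory chain, at −0.13, and without it the VENsens SD was 0.04 for the respiratory chain and 0.03 for the mitochondrial ribosome. Without VENins 2 the VENins SD of the respiratory chain was 0.009, and without VENins 1 that of the mitochondrial ribosome was 0.008. The difference in spread of a list was not tested.

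**Figure D5:**
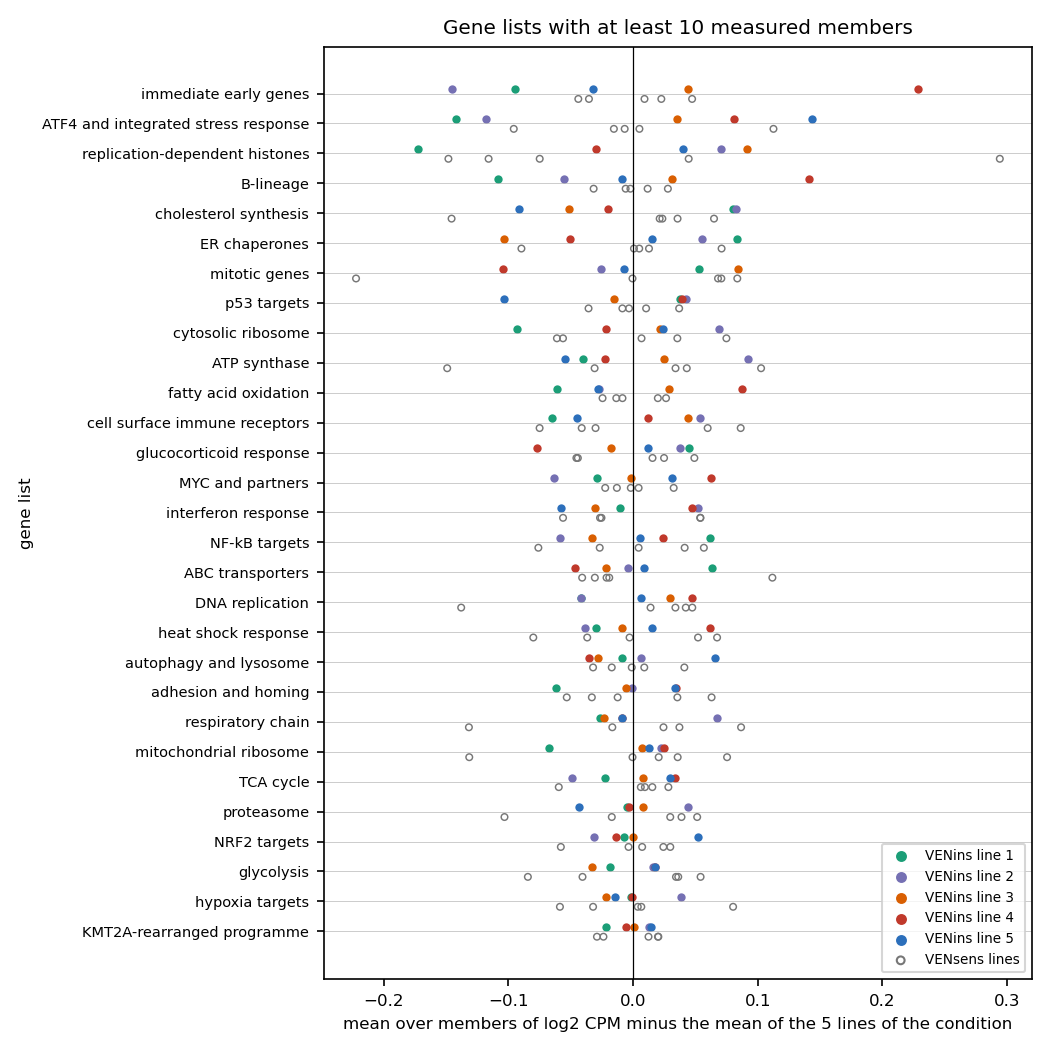
Mean over the measured members of each gene list of log2 CPM minus the mean of the 5 lines of the condition, for lists with at least 10 measured members, ordered by the SD among VENins lines. The immediate early genes are at the top with VENins 4 at 0.23, and the respiratory chain lies in the lower part.

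Most genes of the study's question varied little among the insensitive lines, with BBC3 and AGPAT3 as exceptions. BCL2, the target of the drug, stood at 406, 374, 393, 381 and 358 CPM in VENins 1 to 5, a CV of 4.68% against 6.72% in VENsens lines. MCL1, an anti-apoptotic relative that VEN does not bind well, stood at 248, 245, 233, 222 and 210 CPM. None of the 5 lines was set apart in either gene. The effector BAX stood at 25.5, 28.8, 22.7, 25.2 and 27.4 CPM, each below the VENsens range of 33.3 to 44.0 CPM, and BAK1 at 17.2, 16.4, 18.5, 15.9 and 17.6 CPM. Among BH3-only genes BCL2L11, which encodes BIM, ran from 34.8 to 40.1 CPM and PMAIP1, which encodes NOXA, from 164 to 176 CPM. BBC3, which encodes PUMA, was highest in VENins 5, at 24.7, 30.8, 26.3, 28.9 and 41.9 CPM. Its CV was 21.9% against 5.33% in VENsens lines, with an adjusted p of 0.12 for VENins 5. The 7 measured BH3-only genes had a mean log2 deviation of 0.10 in VENins 5, and of 0.02 with the length and GC trend removed. The value of BBC3 alone with that trend removed is not given here.

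Mitochondrial regulators were also close. DNM1L, which divides mitochondria, ran from 144 to 167 CPM and TFAM, which packs mitochondrial DNA, from 96.8 to 112 CPM. OPA1, which fuses inner membranes, was lowest in VENins 5, at 144, 142, 137, 138 and 116 CPM. AGPAT3, an acyltransferase of phospholipid synthesis, had the largest spread of the study's genes, at 0.842, 1.43, 0.897, 5.09 and 2.03 CPM, with a CV of 84.3%. VENins 4 was highest, at an adjusted p of 0.06, and all 5 lines lay above the VENsens range of 0.0962 to 0.708 CPM.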

How the data were processed

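Deposited counts per gene, which the authors made with bcl2fastq 2.20.0.422, Bowtie2 2.3.5.1, SAMtools 1.9 and HTSeq 0.9.1 on hg19 (GRCh37) according to the submitters' processing notes, were read from the second column. Of the reads in the files 52.7% to 54.2% were on genes. Gene IDs were named through GENCODE 29 (GRCh38), and 52526 of 63677 matched. Of 950 list symbols 922 matched. Library sizes were scaled by TMM (edgeR 4.0.16, R 4.3.3) over the 10 libraries. Genes with a mean of at least 1 CPM in the VENins lines were kept. Spread beyond counting error was a Poisson likelihood ratio test. Each line was tested against the other 4 by the edgeR quasi-likelihood test, and gaps used log2 CPM with a prior count of 2. Spread was compared between conditions with limma 3.58.1, and DESeq2 1.42.0 was the second tool. The p-values were adjusted by Benjamini-Hochberg, except where they are called unadjusted.

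Named genes were, per line, the 3 protein-coding genes set apart upward and the 3 downward with the largest gap. Added to these were the 6 with the largest spread, 12 genes listed for the study's question and list members set apart. Other genes, apart from the markers, were chosen after their values were seen. The steps were tested on simulated data. The members and lists were chosen with earlier results of these data known. Alternatives covered size factors, filters, gaps, tools, the line number as a block and leaving out each line.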

Additional observations from a re-analysis of the deposited data

Results flagged for a closer look

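In 182 groups of 5 lines the gap of the most distant line to its neighbour was divided by the whole range, and 30 groups passed 0.71. Chance alone passes about 1 in 20 groups, and 18 of the 30 are genes already described as set apart, for which a wide gap was required. FTH1, FOXL1, KCNK12 and HOXA10 were chosen after their values were seen, so the chance rate does not hold for them either.

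Among VENins lines VENins 4 stood far from the others in FRMPD1 (0.835), SCARF1 (0.823), FSCN1 (0.774), BLNK (0.771), DNTT (0.912), CPT1A (0.715), PLCH1 (0.731), CDH11 (0.742), AGPAT3 (0.719), GRASP (0.820), B3GALNT1 (0.836), SMAGP (0.735), MKRN3 (0.796), DDN (0.841) and KCNK12 (0.720). VENins 5 stood far from the others in ADM2 (0.859), LOXL4 (0.887), SCN3A (0.912), FTH1 (0.891), OPA1 (0.748) and HOXA10 (0.799). VENins 3 did so in BEST3 (0.869), and VENins 1 in FOXL1 (0.782) and IGHV3-21 (0.980). FOXL1 reached a mean of 1 CPM only through VENins 1, with a mean of 0.604 CPM in the other 4 lines.

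Among VENsens lines 1 line stood far from the others in BBC3 (0.791), LOXL4 (0.717) and IGHV3-21 (0.886). Of the list means, cholesterol synthesis (0.793) and mitotic genes (0.725) had VENsens 1 far below the others, and the respiratory chain (0.816) had VENins 2 far above the other VENins lines.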

How the results depend on the processing

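The number of genes set apart depended on the settings. For VENins 4 (15 genes) it was 7 with RLE size factors, 3 at a mean of at least 5 CPM, 36 with no filter, 25 with all 10 lines in the fit and 24 with p adjusted within the line. For VENins 5 (4 genes) it was 1 at 5 CPM, 16 with no filter, 12 at a gap of 1.5-fold, 21 with no gap, 8 with DESeq2, 8 with p adjusted within the line and 2 with the length and GC offset. For VENins 1 (1 gene) it was 0 at 5 CPM, 5 with no filter, 2 with DESeq2 and 3 with all 10 lines. For VENins 3 (1 gene) it was 0 at 5 CPM and 0 with p adjusted within the line. With the line number as a replicate block over all 10 lines the counts for VENins 3 and 5 were 0 and 1. Leaving out 1 VENins line gave 1 to 3 genes for VENins 1, 0 for VENins 2, 1 to 9 for VENins 3, 16 to 44 for VENins 4 and 1 to 11 for VENins 5.

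The genes with spread beyond counting error (8903) were 5897 at an adjusted p under 0.001 and 6047 to 8545 without 1 VENins line. The test of a difference in spread gave 0 calls in all settings run, also without each pair of lines (0 to 0) and with the replicate block. At a mean of 5 CPM the genes at least 2-fold below the lowest VENsens line were 23, 22, 0, 1 and 15 in VENins 1 to 5, and those in the order VENins 4, then 3, were 20 of 24.

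Under other size factors, a prior count of 0.5 and leaving out each line, 10 of the 21 genes set apart kept their call and 11 lost it in at least 1 setting, in 17 of 147 values, with 0 reversed. Other settings cost further calls: the replicate block kept 10 of the 15 genes of VENins 4 and 1 of the 4 of VENins 5, BEST3 was lost with the block, within-line adjustment and 5 CPM, and IGHV3-21 at 5 CPM. Of 71 other values of list and chromosome profiles 2 reversed, both for the B-lineage list in VENins 4, to −0.0592 as a median and −0.0956 without DNTT and BLNK. Causes were not tested except where fewer genes or lines entered. The study describes its RNA analysis as paired, and the labels do not say which lines form a pair. Over 14614 genes 0 of the 5 VENins lines correlated best with the VENsens line of its own number, with r from −0.15 to 0.05.

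With 1 library a line, error within a line is not measured, and counting error is the floor. The test of spread had little power with 5 lines a condition. The GC trend, the length and GC offset and the F test were looked at after seeing the data.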
